A study of Mus musculus with 2 samples.

Results

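Mouse cluster histone genes encode the proteins that DNA is wound around, and they lie side by side in the genome under the symbols Hist1h to Hist4h. All gene symbols of that form with any counted molecule were taken, which gave 67 genes of the 20716 features with a count and of 31053 in the feature list. By the histone in the symbol they were 6 genes for H1, 18 for H2A, 18 for H2B, 12 for H3 and 13 for H4. H1 is the linker histone that sits on the DNA between nucleosomes, so the set is wider than the core histones H2A, H2B, H3 and H4 that form the nucleosome itself. In the mouse genome GRCm38 54 of them lie on chromosome 13, 10 on chromosome 3, 2 on chromosome 11 and 1 on chromosome 6.

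Most of these genes are replication-dependent. Their transcription rises in S phase, when new DNA has to be packed, and their mRNAs end in a short stem-loop bound by the stem-loop binding protein instead of a poly(A) tail. Some cluster genes also give polyadenylated mRNAs, which are known from differentiated and resting cells. A library primed with poly(dT), as here, captures polyadenylated ends and so sees chiefly that second kind of transcript, and the levels below are levels of captured ends and not of all histone mRNA.

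The cells came from the ear epidermis of female wild-type FVB/NJ mice that were 8 weeks old. The mice had received an isotype control antibody or an antibody to Skint1 in the skin of the ear, and tissue was taken on day 7. Skint1 is a keratinocyte protein required for the development of the dendritic epidermal T cells (DETCs), the γδ T cells with a Vγ5Vδ1 receptor that reside in mouse epidermis. After digestion with warm trypsin, live cells were sorted as CD45+, EpCAM- and MHC-II- and made into 1 droplet library (10x Genomics 3′ v3) per antibody, so the antibody and the library cannot be told apart and no test between samples could be made. The isotype library held 27272211 unique molecular identifiers (UMIs, each a captured mRNA molecule) and the anti-Skint1 library 32450957. Of the barcodes with at least 500 genes, 4709 and 6425 also had at most 12% mitochondrial UMIs, and 8 barcode sequences occurred in both libraries. Levels are UMIs scaled to 1e6 UMIs of the same cells (CPM), differences are log2 ratios of CPM, and both have 95% intervals that cover counting error only.

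DETCs were gated with at least 3 UMIs of Trdc, the TCR δ constant region, at least 3 of Cd3d, Cd3e and Cd3g together, and none of Trac, Cd4, Cd8a and Cd8b1. This gave 3856 DETCs in the isotype library and 5232 in the anti-Skint1 library, which were 81.9% and 81.4% of the barcodes kept. Trdv4, the Vδ1 segment of the DETC receptor, stood at 937 CPM in isotype and 760 in anti-Skint1 DETCs, while Tcrg-V5 was low at 55.5 and 60.2 CPM. Trbc1 was present at 1440.0 and 1232 CPM although Trac was absent by the gate. Cells with at least 3 UMIs of Mki67, Top2a, Rrm2 and Birc5 together, which mark proliferation, were called cycling, and cells with none non-cycling. There were 182 cycling and 3360 non-cycling DETCs in the isotype library and 165 and 4654 in the anti-Skint1 library. The cycling cells were deeper, with a median of 8872.5 against 4044 UMIs in isotype and 8671 against 3564.5 in anti-Skint1.

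The stem-loop is shown first because it separates the annotated gene ends. Past the stop codon, in the transcript with the longest annotated end, 25 members had an exact copy of the shared form as best match, and 43 of the 67 had a match with at most 3 differences. The capitals mark the stem arms in the shared form and the differences from it in the other forms.
Shared stem-loop: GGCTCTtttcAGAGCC
Hist4h4 form, in 7 H4 genes including Hist1h4d: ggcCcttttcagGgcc
Hist1h3c form, in 6 genes including Hist1h3e: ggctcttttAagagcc
Counted from 1 at the 5′ end, the Hist4h4 form carried the paired changes T4C and A13G, which keep the stem complementary, and the Hist1h3c form the loop change C10A. The remaining 24 members had no match. Hist1h2bc, with 742 annotated bases after its stop codon, was among them, but so were genes annotated only to the stop codon, such as Hist1h1b and Hist1h2ak. Such ends are too short to hold a match, so the lack of one there says nothing about the stem-loop.

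The regions before the start of 5 genes are shown because these genes carry the differences described below. Hist1h2ac, Hist3h2a and Hist1h1c were among the genes higher in non-cycling cells, whereas Hist1h2ae and Hist1h1b were higher in cycling cells. The printed Hist1h2ac window is also the region before Hist1h2bc, the most abundant histone transcript here, which runs in the opposite direction. The Hist1h2ae window likewise lies between Hist1h2ae and Hist1h2bg. Sequences are from RefSeq on GRCm38.p6, 5′ to 3′ on the strand of the named gene, and capitals mark matches on either strand to 5 motifs. These were the TATA box with the letters TATAAA, the box named CCAAT after its letters, the H2B octamer ATTTGCAT, the AP-1 site with the letters TGANTCA and the cyclic AMP response element TGACGTCA.
Hist1h2ac (chr13:23683960-23684198, minus strand): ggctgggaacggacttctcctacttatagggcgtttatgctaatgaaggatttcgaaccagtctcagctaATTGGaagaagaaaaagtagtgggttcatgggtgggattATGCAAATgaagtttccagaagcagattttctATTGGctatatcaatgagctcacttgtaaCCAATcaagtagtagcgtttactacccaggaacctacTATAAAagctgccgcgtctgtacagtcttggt
Hist3h2a (chr11:58954435-58954684, plus strand): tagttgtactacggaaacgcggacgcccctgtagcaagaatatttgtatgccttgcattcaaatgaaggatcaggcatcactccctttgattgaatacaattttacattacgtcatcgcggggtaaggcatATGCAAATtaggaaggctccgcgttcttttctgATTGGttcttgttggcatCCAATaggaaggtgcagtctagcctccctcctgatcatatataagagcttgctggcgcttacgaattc
Hist1h1c (chr13:23738557-23738806, plus strand): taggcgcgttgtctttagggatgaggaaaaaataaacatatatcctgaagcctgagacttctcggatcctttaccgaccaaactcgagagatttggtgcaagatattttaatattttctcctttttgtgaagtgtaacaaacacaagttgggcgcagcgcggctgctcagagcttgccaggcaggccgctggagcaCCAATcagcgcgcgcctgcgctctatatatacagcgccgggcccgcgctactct
Hist1h2ae (chr13:23571221-23571395, minus strand): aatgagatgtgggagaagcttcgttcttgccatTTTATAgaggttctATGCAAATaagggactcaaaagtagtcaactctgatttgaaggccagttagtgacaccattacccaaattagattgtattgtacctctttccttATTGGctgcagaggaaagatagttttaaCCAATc
Hist1h1b (chr13:21780626-21780875, minus strand): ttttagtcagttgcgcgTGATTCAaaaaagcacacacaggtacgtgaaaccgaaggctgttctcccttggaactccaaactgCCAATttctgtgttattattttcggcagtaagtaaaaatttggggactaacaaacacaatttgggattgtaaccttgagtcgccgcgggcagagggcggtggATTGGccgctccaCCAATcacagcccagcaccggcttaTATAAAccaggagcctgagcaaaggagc
Promoters of 61 members were matched by gene identifier or, failing that, by symbol or synonym. Hist2h2be, Hist2h4, Hist1h2ap, Hist1h3f, Hist1h2bc and Hist1h3a had no entry of their own. In the 250 bases before the start a CCAAT match was found in 82.0% of the 61 and in 37.5% of all 27025 genes, and TATAAA in 47.5% against 14.3%. The octamer was found in 23.0% against 1.8%, the cyclic AMP element in 6.6% against 1.8% and the AP-1 letters in 4.9% against 7.8%. Such a match is a run of letters and not a bound site.

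In cycling DETCs the summed level of all cluster histones was moderately higher than in non-cycling DETCs, but the genes that made up the sum were largely different ones. The sum was 3892 CPM in cycling and 2556 CPM in non-cycling isotype DETCs, which is a log2 ratio of 0.61 (0.57 to 0.65). In the anti-Skint1 library it was 3261 against 2488 CPM, a log2 ratio of 0.39 (0.35 to 0.43). Hist1h2bc alone supplied 39.8% and 38.2% of histone UMIs in non-cycling cells and 8.42% and 10.3% in cycling cells, isotype first. Without Hist1h2bc the log2 ratio of the sum was 1.21 in isotype and 0.93 in anti-Skint1. Keratin transcripts also differed between the groups, at 325 CPM in cycling against 63.8 in non-cycling isotype cells and 724 against 83.9 in anti-Skint1 cells. Most of them sat in 1 cycling cell of each library, with 512 of 527 and 907 of 1096 keratin UMIs, and without keratin-positive cells the anti-Skint1 ratio was 0.45.

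By gene, 28 of the 51 members with at least 20 UMIs over both groups were at least 2-fold higher in cycling isotype DETCs, and 4 were at least 2-fold lower. Over all 11184 features with as many UMIs the shares were 9.33% higher and 8.67% lower, and the median log2 ratio was −0.01 against 1.12 for the members. In the anti-Skint1 library 23 of 52 members were higher and 9 lower, beside 9.73% and 7.75% of all features, and the member median was 0.81. The 28 genes of the isotype library are called the cycling type below and the other 23 the under-2-fold type, a division made on isotype values alone. The second name says only that 2-fold was not reached, since 9 of the 23 lay above 0 in isotype and 4 were 2-fold lower. In the anti-Skint1 library 22 of the 27 cycling-type genes with enough UMIs were again at least 2-fold higher, and none of the 23 under-2-fold genes was. The division runs through a continuous range: Hist3h2ba at 0.78, Hist2h2bb at 0.83 and Hist2h2aa1 at 0.97 lay just under it and Hist1h4d at 1.01, Hist1h2be at 1.03 and Hist1h2bh at 1.12 just over it. Another 16 members had too few UMIs to place.

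**Figure D1:**
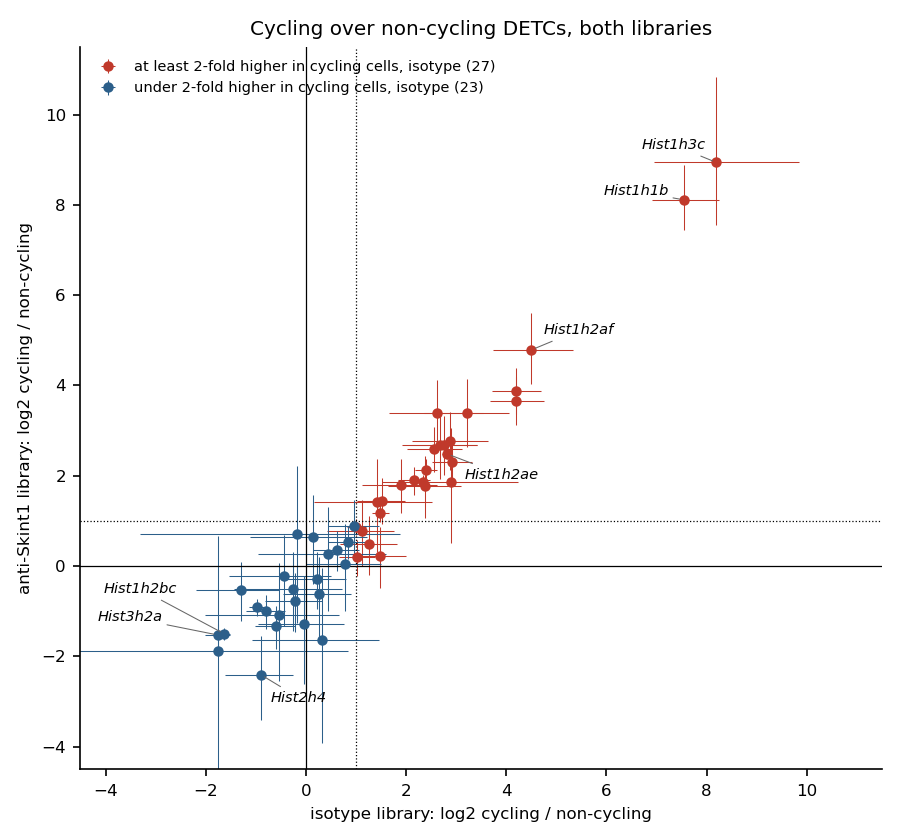
Log2 ratio of CPM in cycling over non-cycling DETCs for 50 histone genes, isotype library on the x axis and anti-Skint1 library on the y axis, with 95% counting intervals and dotted lines at 2-fold. The 27 cycling-type genes are red and the 23 under-2-fold genes blue, and 45 of the 50 lie on the same side of the 2-fold line in both libraries.

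Across these 50 genes Pearson's r between the libraries was 0.969, which is a description, since genes of 1 library share cells and depth. The exceptions to a second 2-fold value were Hist1h2bb at 0.22, Hist1h2be at 0.19, Hist1h2bh at 0.77, Hist1h3a at 0.49 and Hist1h4d at 0.86. Hist1h2ai had too few UMIs in the anti-Skint1 library.

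Linker histone genes went in both directions. Hist1h1b, encoding the H1.5 linker histone, was the clearest gene of cycling cells, with 440 UMIs or 272 CPM in cycling and 21 UMIs or 1.46 CPM in non-cycling isotype DETCs. In the anti-Skint1 library it had 278 against 1.00 CPM, and the log2 ratios were 7.54 (6.91 to 8.25) and 8.11 (7.44 to 8.88). When each cell was thinned to 2000 UMIs, 30.8% and 28.5% of cycling DETCs kept a Hist1h1b UMI against 0.19% and 0.20% of non-cycling ones. Hist1h1b lies at chr13:21779883-21780625 on the minus strand, and its annotated transcript ends at the stop codon, so reads that align only past it would not be counted.

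Hist1h1a was also a gene of cycling cells, with log2 ratios of 4.20 and 3.66. Hist1h1d, for H1.3, was at 79.6 against 17.9 CPM in isotype and 76.0 against 20.4 in anti-Skint1. Hist1h1e, for H1.4, was at 233 against 83.6 and 198 against 88.4 CPM, with log2 ratios of 1.48 and 1.16, and its end sequence is shared with an overlapping annotation of Hist1h2be. Hist1h1c, for H1.2, went the other way. It lies at chr13:23738808-23740367 and stood at 188 CPM in cycling and 368 in non-cycling isotype DETCs and at 158 and 299 CPM in anti-Skint1. The log2 ratios of −0.97 (−1.14 to −0.80) and −0.92 (−1.11 to −0.73) were just short of 2-fold.

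Among H2A genes the summed level was 1896 CPM in cycling and 654 in non-cycling isotype DETCs, and 1355 and 616 CPM in anti-Skint1. Hist1h2ae was the most abundant histone transcript of cycling cells and gave 22.0% of their histone UMIs in isotype. It stood at 856 against 121 CPM in isotype and 645 against 115 in anti-Skint1, log2 ratios of 2.82 (2.72 to 2.92) and 2.48 (2.37 to 2.59). After thinning, 54.9% and 47.9% of cycling and 19.5% and 18.1% of non-cycling cells had a Hist1h2ae UMI. The share was 21.7% and 20.4% in αβ T cells and 7.89% and 13.8% in keratinocytes, neither of them split by cycling. Its level in near-empty barcodes was 99.7 and 84.9 CPM, and the part of free RNA in these shares was not tested. Hist1h2ap followed at 562 against 111 and 281 against 77.7 CPM, and Hist1h2ak at 165 against 31.4 and 128 against 29.1 CPM. Hist1h2ab was rarer but more restricted, at 67.3 against 3.68 and 48.9 against 3.35 CPM. H2A genes are near copies of each other, and 46.7% of the end sequence of Hist1h2ae and 92.2% of that of Hist1h2ap also occurs in other genes, so the split of reads between them is uncertain.

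The under-2-fold H2A gene of highest level was Hist3h2a, at chr11:58954685-58956830 and with 1700 annotated bases after the stop codon. It stood at 84.6 CPM in cycling and 286 in non-cycling isotype DETCs and at 93.9 and 271 in anti-Skint1. Its log2 ratios of −1.76 (−2.01 to −1.51) and −1.53 (−1.78 to −1.29) were past 2-fold in both libraries. Its annotation overlaps Trim17 on the same strand, so reads of these 2 genes may not be separable. Hist1h2ac, with 2058 bases after the stop codon, had 37.0 against 64.1 CPM and 41.0 against 82.4 CPM.

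H2B was the only histone whose summed level was lower in cycling cells, at 631 against 1191 CPM in isotype and 610.1 against 1164 in anti-Skint1, and Hist1h2bc set that direction. Hist1h2bc lies at chr13:23684199-23692908 on the plus strand and shares no end sequence with another gene. It had 328 CPM in cycling and 1018 in non-cycling isotype DETCs, and 336 and 949 in anti-Skint1. The log2 ratios were −1.64 (−1.76 to −1.51) and −1.499 (−1.63 to −1.37). Hist1h2bg, another under-2-fold H2B gene, had 34.6 against 52.5 and 25.8 against 65.2 CPM. The cycling type held 8 H2B genes and the under-2-fold type 7.

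H3 genes were nearly all of the cycling type, 7 against 1, and low in other cells. Their sum was 263 CPM in cycling and 42.4 in non-cycling isotype DETCs, and 262 and 54.4 in anti-Skint1. Hist1h3c had the largest ratio of any member, with 165 UMIs in cycling and 5 in non-cycling isotype cells, and 166 and 4 in anti-Skint1. Its levels were 102 against 0.35 CPM and 109.7 against 0.22 CPM, log2 ratios of 8.20 (6.94 to 9.84) and 8.94 (7.56 to 10.83). Hist1h3e stood at 61.1 against 8.13 and 48.3 against 9.77 CPM.

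H4 genes were the reverse in number, 9 of the under-2-fold type and 1 of the cycling type, although 2 of the 9 in isotype and 4 in anti-Skint1 were lower in cycling cells by 2-fold. Their sum was 272 against 194 CPM in isotype and 280.3 against 241 in anti-Skint1. Hist1h4d, the 1 gene of the cycling type, was the most abundant at 185 against 91.7 and 192 against 106 CPM. Hist2h4 had 13.0 CPM in cycling and 24.2 in non-cycling isotype cells and 7.27 and 38.6 in anti-Skint1, log2 ratios of −0.90 (−1.61 to −0.26) and −2.41 (−3.42 to −1.56), and these intervals barely meet. The 37 members outside the 30 named ones reached at most 57.4 and 43.0 CPM in cycling and 7.09 and 8.43 CPM in non-cycling cells, and 6 and 5 of them had no UMI in cycling cells.

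**Figure D2:**
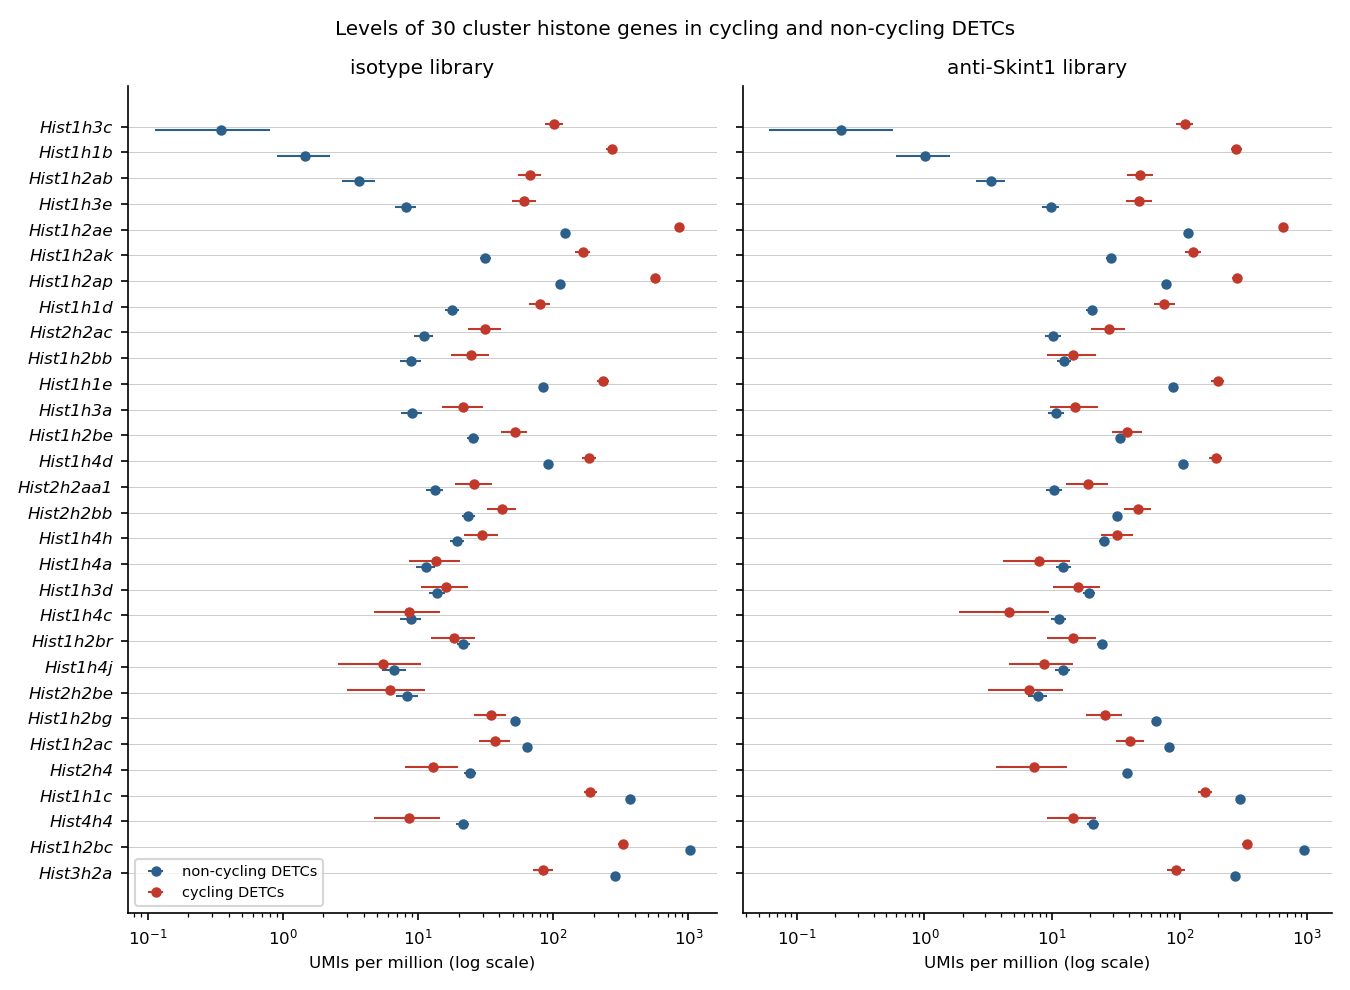
CPM on a log axis of the 30 named histone genes in cycling (red) and non-cycling (blue) DETCs of both libraries, with bars for Poisson 95% intervals. Hist1h2bc leads in non-cycling cells at 1018 and 949 CPM, and Hist1h2ae leads in cycling cells at 856 and 645 CPM.

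Annotated ends and promoters of the 2 types are given as a description. The annotation ran at least 100 bases past the stem-loop in 10, ended nearer to it in 8 and held none in 10 of the 28 cycling-type genes, against 11, 6 and 6 of the 23 under-2-fold genes. Most of the 10 without it, such as Hist1h1b, Hist1h2ak and Hist1h2af, had 0 or 1 annotated bases after the stop codon and could not hold it. Of the 6 under-2-fold genes this was so for Hist2h2bb. The counts therefore cannot separate a short annotation from a missing stem-loop, and the short ends also enter the median length. The median length after the stop codon was 89.5 bases in the cycling type and 376 in the under-2-fold type, and 9 of 28 against 14 of 23 genes had at least 200 bases. CCAAT was found before 92.0% of 25 cycling-type and 70.0% of 20 under-2-fold genes with a promoter entry, and the octamer before 24.0% and 20.0%. TATAAA was found before 52.0% and 35.0%, the AP-1 letters before 12% and 0.0% and the cyclic AMP element before 4.0% and 10.0%.

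H2A and H2B genes often lie head to head on a shared promoter region, as in the Hist1h2ac and Hist1h2ae windows printed above. Of 10 pairs of cluster genes that start away from each other within 2000 bases, with both genes measured, 7 fell into the same type, and Hist1h2ac and Hist1h2bc, whose starts are 251 bases apart, were both of the under-2-fold type. The other 3 pairs were split. Hist1h2ae had log2 ratios of 2.82 and 2.48 where Hist1h2bg, 176 bases away, had −0.60 and −1.34. Hist1h2ap had 2.34 and 1.85 against −0.22 and −0.77 for Hist1h2br at 236 bases, and Hist2h2ac 1.51 and 1.45 against −0.43 and −0.23 for Hist2h2be at 239 bases. In each split pair the H2A gene was the one of the cycling type, and all 3 pairs fell on the same sides of 2-fold in both libraries. Of the 7 like pairs 4 stayed on 1 side in the anti-Skint1 library. The other 3 split there, with Hist1h2bh at 0.77 beside Hist1h3f at 2.69, Hist1h2bb at 0.22 beside Hist1h3c at 8.94 and Hist1h3a at 0.49 beside Hist1h1a at 3.66.

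The second division was by Fos, an immediate early gene whose transcript appears within minutes of cell stimulation and stress, and it was made among non-cycling DETCs only. Of these, 505 isotype and 681 anti-Skint1 cells had no Fos UMI, and 1780 and 2242 had at least 10. Median depths were 3649 and 4247 UMIs in isotype and 3344 and 3676 in anti-Skint1. The summed histone level was 549 CPM without Fos and 3502 with at least 10 Fos UMIs in isotype, a log2 ratio of 2.67 (2.58 to 2.76). In anti-Skint1 it was 609 against 3578 CPM, a log2 ratio of 2.55 (2.48 to 2.63). Without Hist1h2bc the ratios were 2.27 and 2.11.

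Of the 45 members with enough UMIs in isotype 41 were at least 2-fold higher in the Fos-high cells and none was 2-fold lower, where 7.01% of all 10486 features were higher and 4.24% lower. In the anti-Skint1 library 46 of 49 were higher and none lower, beside 7.71% and 2.65% of 10658 features. The member medians were 2.06 and 1.90, and those of all features −0.23 and −0.18. The median gene of at least 50 CPM was lower by 0.18 on the log2 scale in both libraries, so the members stand further above the typical gene by that amount. Both types took part, with 22 of 23 and 23 of 24 cycling-type genes and 19 of 22 and 21 of 23 under-2-fold genes past 2-fold. The members within 2-fold, named after their values were seen, were Hist1h4a at 0.99, Hist1h4n at 0.91, Hist1h2bm at 0.78 and Hist1h2bf at −0.91 in isotype. The values of Hist1h4n and Hist1h2bm are lower bounds, since neither had a UMI in Fos-negative cells and the floor of 3 UMIs was used. In anti-Skint1 they were Hist1h2bf at 0.86, Hist2h2be at 0.54 and Hist1h3f at 0.21. When cycling cells were kept in both Fos groups, 27 of 49 members passed in isotype, beside 7.23% of all features in that grouping.

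Hist1h2bc had 240 UMIs or 125 CPM in the Fos-negative and 11948 UMIs or 1462 CPM in the Fos-high isotype cells. In anti-Skint1 it had 119 and 1463 CPM, and the log2 ratios were 3.54 (3.36 to 3.73) and 3.62 (3.45 to 3.79). It ranked 40 of 10486 and 54 of 10658 features by this ratio, and centred on the median gene the ratios were 3.72 and 3.80. The level climbed with each step of Fos, to 231 and 259 CPM at 1 to 2 Fos UMIs, 733.5 and 696 at 3 to 9, 1343 and 1373 at 10 to 29 and 1645 and 1613 at 30 or more. At a fixed 2000 UMIs per cell, 13.3% (10.3 to 16.7) of Fos-negative and 76.6% of Fos-high isotype cells had a Hist1h2bc UMI, and 14.4% (11.7 to 17.4) and 76.2% in anti-Skint1. Unthinned shares were 18.0% and 86.7% in isotype and 20.0% and 86.8% in anti-Skint1, and thinning left out 45 and 29 shallower isotype and 56 and 38 anti-Skint1 cells. The same share was 21.0% and 24.1% in αβ T cells and 47.4% and 43.8% in keratinocytes, neither of them split by Fos or cycling.

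**Figure D3:**
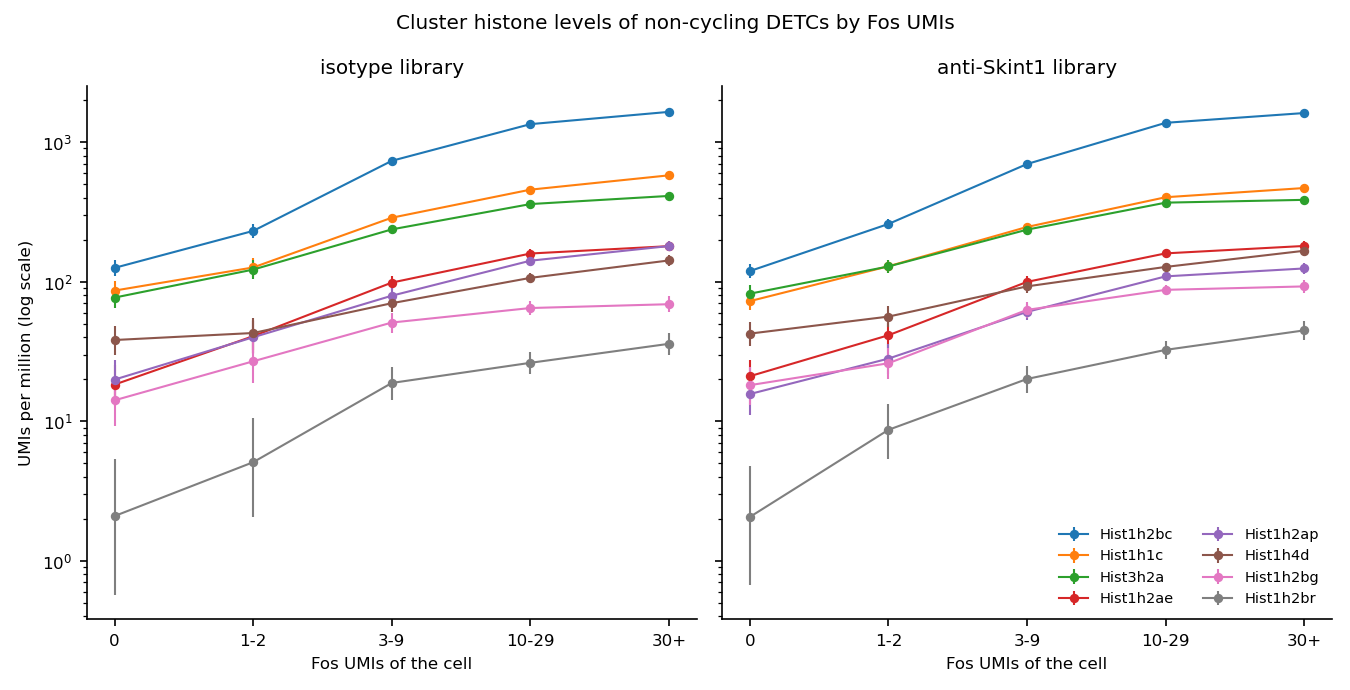
CPM on a log axis of 8 histone genes in non-cycling DETCs with 0, 1 to 2, 3 to 9, 10 to 29 and 30 or more Fos UMIs, for both libraries, with Poisson 95% intervals. Hist1h2bc runs from 125 and 119 CPM in Fos-negative cells to 1645 and 1613 CPM in the highest bin.

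The other abundant genes followed the same course. Hist1h1c went from 86.2 to 504 CPM in isotype and from 72.4 to 427 in anti-Skint1, log2 ratios of 2.55 (2.32 to 2.78) and 2.56 (2.34 to 2.79). Hist3h2a went from 76.8 to 379.6 and from 81.9 to 374 CPM, log2 ratios of 2.31 and 2.19. Genes of the cycling type were no exception. Hist1h2ae stood at 18.3 CPM without Fos and 167 with at least 10 Fos UMIs in isotype, and at 21.0 and 167 in anti-Skint1, log2 ratios of 3.19 (2.71 to 3.72) and 2.99 (2.59 to 3.43). Hist1h2ap had 19.9 and 156 CPM in isotype and 15.6 and 115 in anti-Skint1. Hist1h4d and Hist1h1e had smaller ratios, at 1.66 and 1.74 for the first and 1.29 and 1.11 for the other. Hist1h2br, with 4 and 5 UMIs in Fos-negative cells, had ratios of 3.84 (2.47 to 5.73) and 4.17 (2.93 to 5.80).

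Of the 30 named genes 29 were higher in the top Fos bin than in Fos-negative cells in each library, 28 of them by at least 2-fold, and 21 and 20 were higher at every step. Hist1h1b stayed near the detection floor in all these cells, at 1.04 and 1.47 CPM in isotype and 0.82 and 1.53 in anti-Skint1. Keratin transcripts also differed, at 18.8 CPM in Fos-negative and 101 in Fos-high isotype cells and at 24.7 and 137 in anti-Skint1. Of the 828 and 1255 keratin UMIs in Fos-high cells, 709 and 1076 lay in 5 cells of each library, and their part in the histone levels was not tested. Among near-empty barcodes of 1 to 100 UMIs, whose RNA is largely free RNA, the summed histone level was 2139 and 2043 CPM and Hist1h2bc stood at 936 and 893. Both Fos-negative levels lay well below these, and the Fos-high levels above them.

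Cycling cells carried less Fos than non-cycling ones, at 1483 against 3795 CPM in isotype and 1757 against 3749 in anti-Skint1. The comparison of cycling with non-cycling cells was also made within Fos groups, which were set on Fos UMIs and not on Fos CPM. Fos was 0 in both groups of the Fos-negative comparison but not matched in the Fos-high one, at 3142 CPM in cycling and 6120.4 in non-cycling isotype cells and 3568 and 6603 in anti-Skint1. Among Fos-negative cells, with 36 and 31 cycling cells, the summed level was 4557 against 549 CPM in isotype and 3605 against 609 in anti-Skint1, log2 ratios of 3.05 and 2.57. Among Fos-high cells, with 75 and 68 cycling cells, it was 4352 against 3502 and 3609.97 against 3578 CPM, log2 ratios of 0.31 and 0.01. The difference in the sum therefore differed between these Fos groups.

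Within Fos-high cells 23 of 48 members in isotype and 23 of 52 in anti-Skint1 were still at least 2-fold higher in cycling cells, against 10.2% of all features in both libraries. Hist1h1b had log2 ratios of 7.32 and 7.06 there, Hist1h2ae 2.45 and 2.01 and Hist1h2ap 1.96 and 1.37. Hist1h2bc was lower by 1.40 and 1.31 on the log2 scale and Hist3h2a by 1.53 and 1.36 there, where Fos CPM was also lower in the cycling cells, and the part of Fos in these ratios was not tested. Among Fos-negative cells, Hist1h2bc was within 2-fold, with log2 ratios of −0.18 (−0.78 to 0.37) and −0.88 (−1.68 to −0.18). Hist3h2a was at −1.57 and −1.43 there, on 7 and 8 UMIs in cycling cells. Inside the cycling cells, Hist1h2bc had 110.6 and 64.6 CPM without Fos and 555 and 591 with at least 10 Fos UMIs. Hist1h1b ran the other way there, at 435 and 506 against 235 and 205 CPM. Hist1h2ae hardly differed, at 933 and 719 against 916 and 671 CPM. The cycling type as a whole stood at 3974 and 3095 CPM in Fos-negative and 3000.3 and 2295 CPM in Fos-high cycling cells, and the under-2-fold type at 564 and 483 against 1319 and 1296 CPM.

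**Figure D4:**
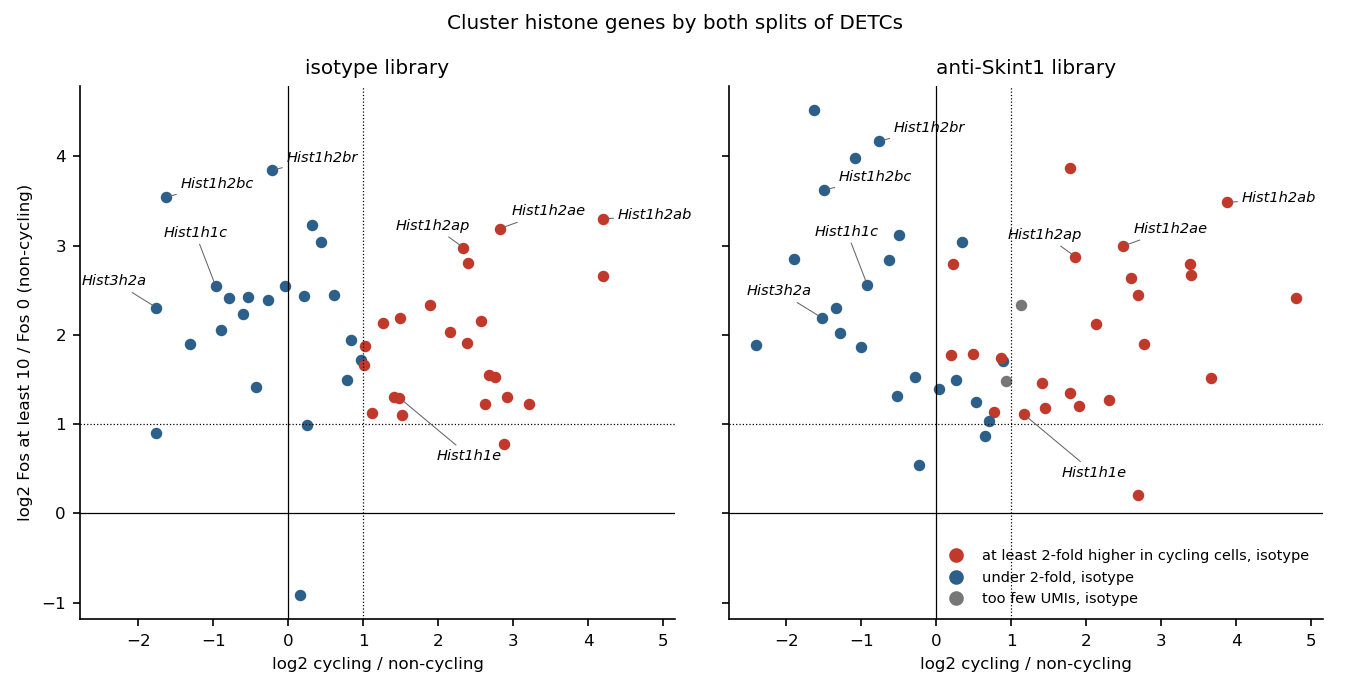
Log2 ratio of CPM in cycling over non-cycling DETCs (x) and in Fos-high over Fos-negative non-cycling DETCs (y), for 45 histone genes in the isotype and 49 in the anti-Skint1 library. Red genes are of the cycling type, blue of the under-2-fold type and grey unplaced. The points run from −1.76 to 4.20 and from −2.41 to 4.79 along x, while 41 and 46 of them lie above 1 on y.

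Among cycling DETCs, S-rich cells had at least 2 times as many UMIs of a 28-gene replication list, such as Mcm2 and Pcna, as of a 26-gene G2 and mitosis list, such as Ccnb1 and Plk1, and G2/M-rich cells the reverse. There were 60 S-rich and 78 G2/M-rich cells in isotype and 61 and 58 in anti-Skint1, with medians of 8426.5 and 9613 UMIs and of 8583 and 9483. Captured histone transcripts were lower in the S-rich cells, at 1991 against 3874 CPM in isotype and 1497 against 3418 in anti-Skint1. The log2 ratios were −0.96 (−1.07 to −0.86) and −1.19 (−1.31 to −1.07). Keratin UMIs numbered 8 in S-rich and 518 in G2/M-rich isotype cells and 83 and 915 in anti-Skint1, of which 1 G2/M-rich cell held 512 and 907. Without cells holding keratin UMIs the log2 ratios were −1.23 and −1.49. No member of 28 and 26 with enough UMIs was 2-fold higher in S-rich cells, and 15 and 19 were 2-fold lower. Of all features 5.68% and 5.85% were higher and 10.4% and 10.1% lower, isotype first, and the member medians were −1.21 and −1.51 against −0.11 in both libraries for all features.

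The cycling type carried this difference, with 12 of 18 and 15 of 17 genes 2-fold lower in S-rich cells, against 3 of 10 and 4 of 9 of the under-2-fold type. Hist1h1b had 70.5 CPM in S-rich and 235 in G2/M-rich isotype cells and 68.7 and 329.95 in anti-Skint1, log2 ratios of −1.74 (−2.30 to −1.21) and −2.26 (−2.81 to −1.75). In the S-rich cells 10 cells held 97.1% and 92.1% of its UMIs. Hist1h2ae had 268 against 857 and 148 against 619 CPM, and 10 cells held 58.6% and 58.5% of its S-rich UMIs. Hist1h3c, at −2.59 and −2.22, and Hist1h2ab, at −2.79 and −2.60, were also lower, the last on 5 and 6 UMIs in S-rich cells. Hist1h2bc was within 2-fold, at −0.18 (−0.47 to 0.10) and 0.38 (0.08 to 0.69), and so was Hist1h1c at 0.34 (−0.05 to 0.73) and −0.26 (−0.73 to 0.20). Fos was at 1838 against 1256 CPM in isotype and at 1588 against 1838 in anti-Skint1, and its part in the difference was not tested.

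**Figure D5:**
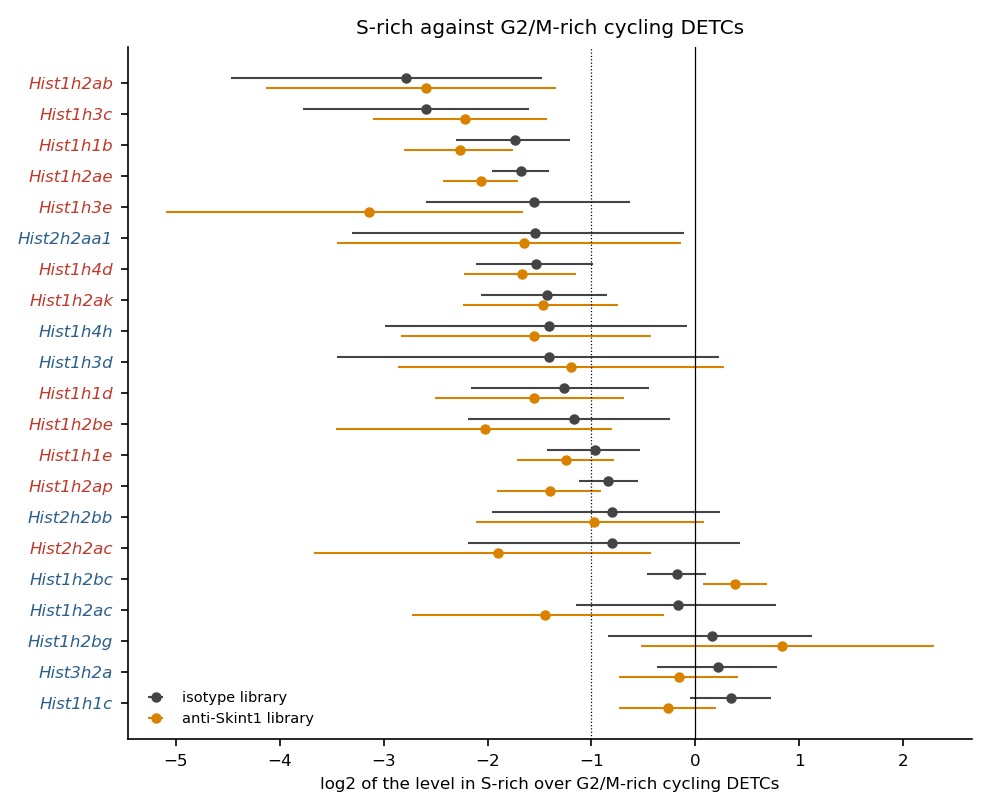
Log2 ratio of CPM in S-rich over G2/M-rich cycling DETCs for 21 histone genes in both libraries, with 95% counting intervals and a dotted line at −1. Gene names are red for the cycling and blue for the under-2-fold type, and Hist1h2bc and Hist1h1c lie near 0 while Hist1h2ab and Hist1h3c lie below −2.

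Histone genes outside the clusters, which give polyadenylated mRNA, and the machinery around histones were read in the same cells. Of 10 such variants 5 were at least 2-fold higher in cycling DETCs in each library and none lower, where 9.33% and 9.73% of all features were higher. H2afz, the H2A.Z variant, had 3918 against 568 CPM in isotype with a log2 ratio of 2.78, and 2.68 in anti-Skint1. H2afx, the variant phosphorylated at DNA breaks, had ratios of 4.15 and 3.93. Of 12 histone mRNA factors 3 were higher, among them the stem-loop binding protein gene Slbp at 1.29 and 1.37, and of 12 chaperones 9 were higher, led by Asf1b at 5.05 and 5.01 and Hjurp at 4.43 and 4.001. In the Fos division 3 of 10 variants were higher in each library, namely Cenpa, H3f3b and H1f0, beside 7.01% and 7.71% of all features. No mRNA factor was higher and 2 and 0 of 12 were lower, with a list median of −0.61 and −0.15, and 1 and 0 of 12 chaperones were higher. H3f3b, one of the pair of genes for replication-independent H3.3, had Fos ratios of 1.64 and 1.69 and cycling ratios of −0.19 and −0.13. Between S-rich and G2/M-rich cells, where 10.4% and 10.1% of all features were lower and 5.68% and 5.85% higher, 5 and 6 of 10 variants were lower, no mRNA factor passed 2-fold, and 2 and 3 chaperones were higher and 1 and 1 lower.

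Other cells of the sort also carried the transcripts. The 123 and 111 non-cycling αβ T cells had a summed level of 1349 and 1502 CPM, and non-cycling DETCs lay above them by 0.92 (0.81 to 1.04) and 0.73 (0.61 to 0.84) on the log2 scale. Without Hist1h2bc the ratios were 0.49 and 0.32. Members split evenly, with 7 of 48 and 9 of 51 higher and 8 and 10 lower in DETCs, where 17.1% and 17.5% of all features were higher and 8.36% and 8.64% lower. The typical gene of at least 50 CPM was higher in DETCs by 0.22 and 0.26. The members higher in DETCs were all of the under-2-fold type, of which 3 of 23 were lower in each library. Hist1h2bc had ratios of 1.99 (1.73 to 2.25) and 1.84 (1.57 to 2.12), Hist3h2a 2.58 and 2.23 and Hist1h2bg 2.66 and 1.95, the last on 4 and 7 UMIs in αβ T cells. Hist1h4i, one of these 3 and named after its value was seen, was lower in DETCs at −3.02 and −2.65, and Hist1h1d was lower at −1.22 and −0.92. Fos was lower in the αβ T cells, at 1041 and 1251 CPM against 3795 and 3749, and the direction of the sum differed between Fos groups. Among Fos-negative non-cycling cells, with 43 and 40 αβ T cells, the sum was lower in DETCs, at 549 against 992 CPM in isotype and 609 against 1139 in anti-Skint1. These are log2 ratios of −0.85 (−1.10 to −0.60) and −0.90 (−1.14 to −0.66). Among Fos-high cells, with 19 αβ T cells in each library, the sum was higher in DETCs, with log2 ratios of 0.80 (0.58 to 1.03) and 0.81 (0.60 to 1.04), but Fos was not matched there, at 3750.5 and 3658 CPM in αβ T cells against 6120.4 and 6603 in DETCs. Single members had medians of −1.41 and −0.76 against −0.51 for all features in both libraries, and 12 of 45 and 15 of 49 lay above 0. A member absent from the 19 αβ T cells was set to 3 UMIs there, so such ratios are lower bounds and these medians give no direction. Summed, the cycling type was at 745 and 766 CPM in these DETCs against 750 and 812 in the αβ T cells. The under-2-fold type was at 2751 and 2804 against 1262 and 1223 CPM. Hist1h2bc had ratios of 0.08 (−0.59 to 0.84) and −1.09 (−1.59 to −0.54) in Fos-negative cells and of 1.35 and 1.91 in Fos-high cells. With cycling cells included, the 38 and 83 keratinocytes had 1914 and 1939 CPM of all members, and the 22 and 47 CD3-negative lymphocytes 1669 and 1242. The 32 and 61 non-cycling keratinocytes had 1357 and 1802 CPM.

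Compared to the isotype library, the anti-Skint1 library differed little in the summed histone level of non-cycling DETCs, and single genes moved more in smaller groups of cells. In all non-cycling DETCs the summed level was 2488 against 2556 CPM, a log2 ratio of −0.04 (−0.06 to −0.02), and it was 0.15 in Fos-negative and 0.03 in Fos-high cells. None of 54 members was 2-fold higher or lower, where 1.09% of 12071 features were higher and 0.895% lower. Hist1h2bc was at −0.10 (−0.13 to −0.07), Hist1h1c at −0.30 (−0.35 to −0.24) and Hist1h2ap at −0.52 (−0.62 to −0.42), whereas Hist2h4 was at 0.68 (0.49 to 0.87) and Hist1h4j at 0.87 (0.51 to 1.23). In cycling DETCs the sum was lower in the anti-Skint1 library by 0.25 on the log2 scale, and of 43 members none was 2-fold higher and 1 lower, beside 1.43% and 1.68% of 8765 features. It was Hist1h2ap, with 911 UMIs in isotype and 425 in anti-Skint1 and a ratio of −1.001 (−1.17 to −0.83). Hist1h2ae was at −0.41 (−0.53 to −0.29), while Hist1h1b at 0.04 and Hist1h3c at 0.11 hardly differed. In Fos-negative cells 3 of 21 members were higher and 1 lower, beside 0.895% and 1.59% of all features, and 2 of 51 were higher and none lower in Fos-high cells, beside 1.18% and 0.838%. In the Fos-high cells 42 of the 51 lay above 0, with a median of 0.31 against −0.01 for all features. In S-rich cells none of 16 members was higher and 3 were lower, beside 2.23% and 2.94% of all features, with Hist1h2ap at −1.73 (−2.23 to −1.25). In G2/M-rich cells 1 of 34 was higher and 2 were lower, beside 1.72% and 3.01%, and Hist1h2ap was at −1.17. How far these values exceed the spread between libraries of 1 treatment is unknown with 1 library each.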

How the data were processed

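Single-cell RNA-seq was analysed from 1 isotype and 1 anti-Skint1 library. The deposited files hold raw UMI counts per gene and barcode, which the authors made with Cell Ranger 3.0.2 on GRCm38 (mm10), all barcodes kept. Whether intronic reads were counted is not given in the sources used here. Counts were summed over cells and divided by their total. Poisson intervals on CPM and Clopper-Pearson intervals on ratios are exact, at 95%, and cover counting error only. No test was run, since cells are not replicates. Features with at least 20 UMIs over both groups were compared, a group at 0 was set to 3 UMIs, and at least 2-fold was called higher or lower. Members with at least 100 UMIs over all DETCs, at most 30, were named. Members, lists and divisions were chosen with earlier results of these data known. Annotated positions are from GENCODE vM21, and the index used by the authors may differ. Scrublet in scanpy 1.11.5 called 1 of 4709 and 0 of 6425 barcodes, which is too few to have worked, so no doublets were removed. Alternatives changed the limits on genes, mitochondrial share, gates, thinning, centring, minimum UMIs and doublet scores, and those by Fos level, keratin UMIs or without Hist1h2bc were added after seeing the data. Scripts used Python 3.11.15, numpy 2.4.6, scipy 1.17.1 and pandas 2.3.3 and were tested on simulated counts.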

Additional observations from a re-analysis of the deposited data

How the results depend on the processing

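Of 107 alternative values 73 stayed within the counting interval or 1.5 times the count, 30 moved and 4 reversed. No paired analysis was possible because each antibody had 1 library, and for the same reason no library could be left out. The summed cycling ratio of the isotype library (0.61) was 0.38 in cells of at most 2500 genes, 0.56 at 5% mitochondrial UMIs, 0.66 centred on the median gene, 0.77 with a cycling gate of 5 UMIs, 3.05 in Fos-negative and 0.31 in Fos-high cells and 1.21 without Hist1h2bc. That of the anti-Skint1 library (0.39) was, in the same order, 0.25, 0.44, 0.44, 0.51, 2.57, 0.013 and 0.93, and 0.34 with a DETC gate of 1 UMI, 0.26 thinned and 0.45 without cells holding keratin UMIs. Members at least 2-fold higher in cycling cells numbered 16 of 21 in isotype and 14 of 21 in anti-Skint1 among Fos-negative cells, beside 9.71% and 9.91% of all features. At 5% mitochondrial UMIs the Fos ratio of Hist1h2bc was 3.19 in isotype and 3.997 in anti-Skint1, and it was 3.80 centred in anti-Skint1. Members higher in Fos-high cells numbered 26 of 30 and 28 of 33 at 5% mitochondrial UMIs, beside 7.18% and 8.58% of all features, and 27 of 49 in isotype when cycling cells were kept in, beside 7.23%. The small difference of anti-Skint1 from isotype in non-cycling cells (−0.04) turned to 0.015 at 5% mitochondrial UMIs, 0.15 and 0.031 in Fos-negative and Fos-high cells and 0.00041 without Hist1h2bc, and was −0.013 centred. In cycling cells (−0.25) it was −0.18 at 2500 genes, −0.10 at 5% mitochondrial UMIs, −0.36 thinned and −0.34 in Fos-negative cells. The cause of these shifts was not tested. Of cycling DETCs 69.8% and 67.3% had over 2500 genes, against 4.14% and 2.73% of non-cycling ones, so the limit on genes removes most cycling cells. Depth limits Hist1h1b and Hist1h3c outside the cycle, which rest on 4 to 21 UMIs.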
